A study of Mus musculus with 15 samples.

Results

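Il2ra, Il2rb, Il2rg, Il7r, Il4ra, Il21r, Il15ra, Il6ra, Il6st and Il18r1 encode interleukin receptor chains of CD8 T cells, and their messenger RNA was followed before and after stimulation. The 10 genes were chosen by name and matched by symbol among the 17493 genes of the count tables. All 10 passed the filter on low counts that left 10831 genes for testing. Il2ra and Il15ra had 2 to 10 counts in each unstimulated library and passed that filter through their stimulated libraries.

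The cells were CD8+ T lymphocytes from spleen and lymph nodes of female OT-1 mice, strain C57BL/6-Tg(TcraTcrb)1100Mjb/Crl. All 5 groups, controls included, therefore carry the same transgenic T cell receptor, which recognises an ovalbumin peptide. Each group held 3 libraries. Unstimulated cells were taken at 0 h with no treatment. Stimulated wells held 50000 T cells and lasted 8 h or 22 h. Immunofilaments (IF, synthetic filaments labelled as carrying peptide-MHC with SIIT and IL-2) were given at 5 ng/ml. Dendritic cells (DC), raised with Flt-3Ligand and pulsed with the SIITFEKL peptide, were added at 20000 per well, and the labels name IL-2 for the filaments only. Viable CD8+ CD103- cells were then sorted. Age is not among the labels used here. In every group the titles number the replicates Don1, Don2 and Don3, with no word on what Don stands for. If these are donors, replicates of a group are separate animals and a number may mark the same animal in several groups. Otherwise p-values measure only the spread between these samples, which may be technical.

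Receptors for IL-2, IL-4, IL-7, IL-15 and IL-21 share the common gamma chain, encoded by Il2rg, and signal through JAK kinases and STAT factors. Each adds chains of its own. The alpha chain Il2ra gives the IL-2 receptor high affinity, Il2rb is its signalling beta chain and also serves IL-15, and Il7r, Il4ra and Il21r bind their ligands directly. Il15ra holds IL-15 and presents it to neighbouring cells, Il6ra binds IL-6 and pairs with the shared signalling chain Il6st (gp130), and Il18r1 belongs to the IL-1 receptor family, which signals through MyD88. Naive T cells live on IL-7, and a rise of the IL-2 receptor alpha chain is a textbook sign of T cell activation.

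Total counts ran from 2892874 to 19806730 per library. Levels are given as CPM, counts scaled to a common library total by TMM, the trimmed mean of M values, and expressed per 1000000 counts. All 11 T cell markers on a fixed list were detected in every library, with summed levels from 11677 to 12727 CPM in unstimulated cells and from 5443 to 8498 CPM in the stimulated groups. Cd4 had no count in 14 of 15 libraries and the regulatory T cell factor Foxp3 none in 11, with a highest level of 8.62 CPM in 1 IF 8 h library. Ikzf4, listed with them, lay between 0.233 and 1.45 CPM in unstimulated cells and reached 11.7 CPM at DC 8 h. It passed the test as higher in each comparison with unstimulated cells, and its part in the Il2ra values was not tested. Summed markers ran from 3.35 to 35.1 CPM for B cells, from 47.7 to 328 for NK cells and from 0 to 15.8 for macrophages and neutrophils. For CD4 and regulatory T cells they ran from 0.233 to 1.81 CPM in unstimulated and from 3.06 to 14.6 in stimulated libraries. Some libraries stood apart. IF 22 h replicates 2 and 3 held 127 genes, Il6ra among them, at under 1/2 of the lowest level in the 13 other libraries, against 1 gene at over 2 times the highest, and their mitochondrial ribosomal RNA was 0.179% and 0.146% of counts, against 1.82% to 4.49% elsewhere. Replicate 2 of DC 8 h and of DC 22 h also lay at one end of its group for most of the receptor chains, as described with Il7r.

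**Figure D1:**
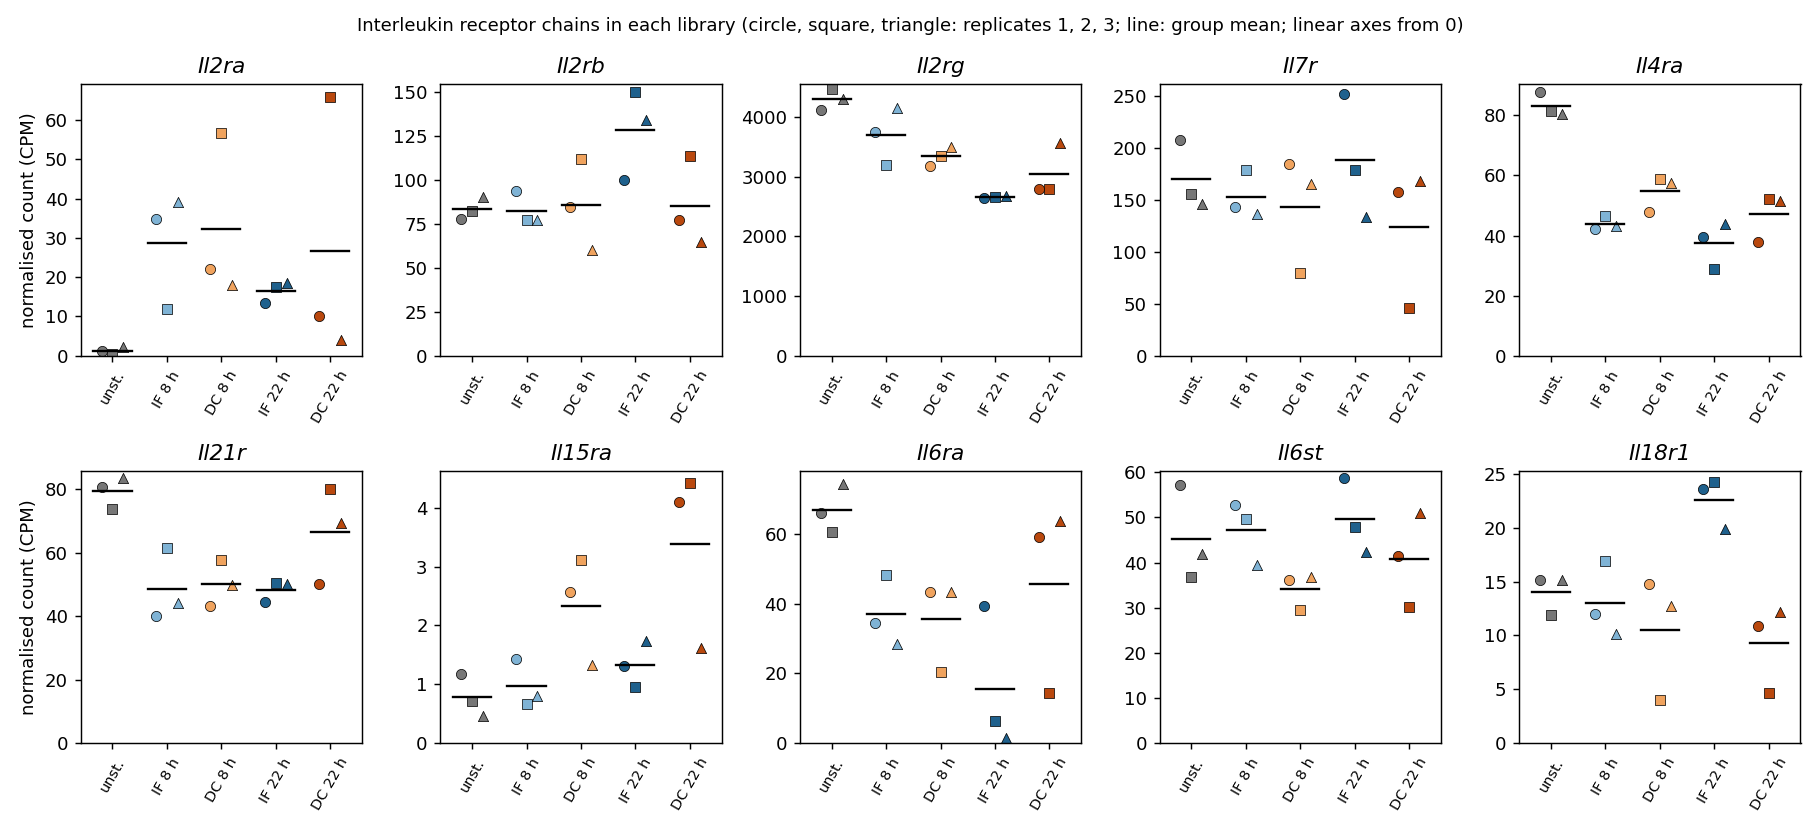
Level of each receptor chain in CPM (linear axes from 0) in the 5 groups. Symbols are the 3 libraries of a group and bars are group means; Il2ra is lowest in unstimulated cells and Il4ra highest.

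Il2ra rose with each stimulus at each time, whereas Il2rb passed the test in no comparison with unstimulated cells and Il2rg was lower at 22 h. Il2ra lies at chr2:11642807-11693193 on the plus strand of GRCm38. Its promoter is shown because it belongs to the chain with the largest change of the 10. Capitals mark matches to 7 motifs searched on both strands of each promoter, 250 bases before to 50 after the start site (RefSeq, GRCm38.p6): STAT (TTCNNNGAA), AP-1 (TGANTCA), CRE (TGACGTCA), NF-kappaB, GC box (GGGCGG), ETS (CCGGAAG) and E box (CACGTG).
Il2ra promoter, chr2:11642542-11642841, plus strand: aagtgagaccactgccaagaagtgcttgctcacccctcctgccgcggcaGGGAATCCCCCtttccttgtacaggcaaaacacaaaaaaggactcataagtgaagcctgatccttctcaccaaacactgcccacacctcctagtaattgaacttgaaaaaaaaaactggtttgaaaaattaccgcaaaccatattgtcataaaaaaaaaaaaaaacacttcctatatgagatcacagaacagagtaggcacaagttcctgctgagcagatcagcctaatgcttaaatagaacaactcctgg
The capitals here are 2 overlapping NF-kappaB matches, beginning at positions -201 and -200. Of 32851 mouse promoters of this length, 8.46% hold at least 1 such match. A match describes the letters only.

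In unstimulated replicates 1 to 3 Il2ra stood at 1.17, 0.361 and 2.33 CPM. IF 8 h libraries held 34.8, 11.9 and 39.1 CPM and DC 8 h libraries 22.0, 56.8 and 17.9 CPM. At 22 h the values were 13.3, 17.4 and 18.5 CPM with IF and 10.02, 66.0 and 3.93 CPM with DC. All 12 stimulated libraries lay above all 3 unstimulated ones, and the DC 22 h libraries spread most, with replicate 2 at 9.47 times the mean of the other 2. The log2 fold change was 4.54 ± 0.97 (SE) with IF at 8 h (23.3-fold, adjusted p = 0.00961, edgeR). With DC at 8 h it was 4.70 ± 0.97 (26.0-fold, adjusted p = 0.00673). At 22 h it was 3.73 ± 0.96 with IF (13.3-fold, adjusted p = 0.0295) and 4.42 ± 0.96 with DC (21.4-fold, adjusted p = 0.00933). These 4 comparisons share the same 3 control libraries, which held 8, 2 and 10 Il2ra counts. Leaving out unstimulated replicate 2 gave adjusted p = 0.0529 for IF 8 h and 0.0549 for DC 22 h, leaving out unstimulated replicate 1 gave 0.0506 for DC 22 h, and the IF 22 h call was lost in 5 of 6 such omissions (adjusted p up to 0.126). The DC 8 h call held in all 14 alternatives run.

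In group means Il2ra ran in the order DC 8 h, IF 8 h, DC 22 h, IF 22 h and unstimulated, and only the last step separated groups whose values did not overlap. No IF against DC or 22 h against 8 h difference of Il2ra passed the test. IF 22 h stood 0.69 ± 0.72 below DC 22 h on the log2 scale (95% interval -2.22 to 0.84, adjusted p = 0.721). Without DC 22 h replicate 2 that log2 difference turned to 1.25.

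Il2rb lies at chr15:78479256-78495271 on the minus strand. It stood at 77.9, 82.4 and 90.1 CPM in unstimulated cells. The values were 93.5, 76.9 and 76.9 CPM at IF 8 h and 84.5, 112 and 60.2 CPM at DC 8 h. At 22 h they were 99.6, 150.1 and 134 CPM with IF and 76.9, 113 and 64.6 CPM with DC. Only the IF 22 h libraries all exceeded the unstimulated range, and also that of IF 8 h. The IF 22 h log2 fold change was 0.62 ± 0.24 (95% interval 0.11 to 1.12, adjusted p = 0.146), which did not pass the test. It passed with only the compared groups in the fit (adjusted p = 0.0431) and with library size alone (0.81, adjusted p = 0.0454). Against IF 8 h the log2 difference was 0.63 ± 0.24 (adjusted p = 0.228), and against DC 22 h 0.59 ± 0.24 (adjusted p = 0.229). With IF 22 h replicates 2 and 3 both left out, the log2 change against unstimulated cells was 0.26.

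Il2rg lies at chrX:101264378-101268255 on the minus strand and shares exonic bases with Gm20489, a protein-coding gene of the same strand, so reads of either can have been counted for it. Its unstimulated libraries held 4125, 4470 and 4311 CPM. At 8 h the values were 3747, 3202 and 4154 CPM with IF and 3181, 3349 and 3495 CPM with DC. At 22 h they were 2643, 2661 and 2680 CPM with IF and 2797, 2791 and 3561 CPM with DC. Every DC 8 h, IF 22 h and DC 22 h library lay below the unstimulated range, and the IF 22 h libraries lay below every other library. Il2rg fell by 0.69 ± 0.13 on the log2 scale at IF 22 h (adjusted p = 0.0031) and by 0.50 ± 0.12 at DC 22 h (adjusted p = 0.0215). The DC 22 h call was lost in 9 of 14 alternatives. These were 5 of 6 omissions of 1 library, library size alone (-0.17, adjusted p = 0.337), no low-count filter (adjusted p = 0.0535), only the compared groups in the fit (adjusted p = 0.0616) and both DC replicate 2 libraries left out (adjusted p = 0.0722).

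The makeup of IL-2 receptor counts shifted with stimulation. Il2ra made up 0.0296% ± 0.0225 (SD, n = 3) of the Il2ra, Il2rb and Il2rg counts in unstimulated cells. After 8 h it made up 0.726% ± 0.314 with IF and 0.928% ± 0.600 with DC, and after 22 h 0.585% ± 0.0896 and 0.893% ± 1.16. The lowest stimulated library, DC 22 h replicate 3, held 0.108% (exact 95% binomial interval 0.0793% to 0.144%). The highest unstimulated library, replicate 3, held 0.0529% (0.0254% to 0.0972%), and these 2 intervals, which cover counting error only, overlap. These are shares of 3' counts and not of protein.

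Il4ra fell in 3 of 4 comparisons with unstimulated cells and Il21r in 2 of 4. Both genes lie side by side on the plus strand of chromosome 7, Il4ra at chr7:125552120-125579474 and Il21r at chr7:125603429-125633570, with 23954 bases and no other protein-coding gene between them. Their promoters are shown together because these neighbours were the ligand-binding chains that fell.
Il4ra promoter, chr7:125552021-125552320, plus strand: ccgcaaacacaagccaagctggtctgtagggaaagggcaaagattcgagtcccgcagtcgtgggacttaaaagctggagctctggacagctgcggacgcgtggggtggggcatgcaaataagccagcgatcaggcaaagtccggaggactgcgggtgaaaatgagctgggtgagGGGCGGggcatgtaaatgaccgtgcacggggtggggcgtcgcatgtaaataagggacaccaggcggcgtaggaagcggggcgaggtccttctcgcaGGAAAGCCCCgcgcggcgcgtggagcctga
Il21r promoter, chr7:125603179-125603478, plus strand: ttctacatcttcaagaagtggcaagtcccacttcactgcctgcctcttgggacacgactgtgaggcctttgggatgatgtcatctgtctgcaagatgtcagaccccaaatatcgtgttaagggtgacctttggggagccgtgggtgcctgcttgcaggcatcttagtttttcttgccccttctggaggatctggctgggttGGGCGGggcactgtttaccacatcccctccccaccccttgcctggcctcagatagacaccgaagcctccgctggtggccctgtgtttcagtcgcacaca
The capitals mark a GC box at -76 and an NF-kappaB match at 21 in Il4ra, and a GC box at -49 in Il21r. A GC box match occurs in 35.7% of all promoters of this length. None of the other motifs searched is spelled out in either window.

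Il4ra stood at 87.6, 81.5 and 80.5 CPM in unstimulated cells. At 8 h the values were 42.1, 46.4 and 43.1 CPM with IF and 47.9, 58.9 and 57.4 CPM with DC. At 22 h they were 39.4, 28.8 and 44.0 CPM with IF and 37.9, 52.2 and 51.6 CPM with DC. All 12 stimulated libraries lay below all 3 unstimulated ones, and every IF library of either time lay below every DC 8 h library. Il4ra fell by 0.92 ± 0.19 on the log2 scale at IF 8 h (adjusted p = 0.00763), by 1.15 ± 0.19 at IF 22 h (adjusted p = 0.00142) and by 0.82 ± 0.19 at DC 22 h (adjusted p = 0.0126). The DC 8 h change of -0.61 ± 0.19 had an adjusted p of 0.061 with edgeR and of 0.0221 with DESeq2. The DC 22 h call was lost without unstimulated replicate 1 (adjusted p = 0.0588), without DC 22 h replicate 1 (adjusted p = 0.0677) and with library size alone (adjusted p = 0.0967). An antisense gene, Gm44876, overlaps Il4ra, and the use of strand in counting is not given in the sources used here.

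Il21r stood at 80.6, 73.9 and 83.6 CPM in unstimulated cells. At 8 h it held 40.1, 61.3 and 44.2 CPM with IF and 43.2, 57.8 and 49.8 CPM with DC. At 22 h it held 44.4, 50.3 and 50.1 CPM with IF and 50.2, 80.2 and 69.3 CPM with DC. Both 8 h groups and IF 22 h lay below the unstimulated range, whereas DC 22 h replicate 2 reached into it. Il21r fell by 0.71 ± 0.21 on the log2 scale at IF 8 h (adjusted p = 0.0439) and by 0.72 ± 0.20 at IF 22 h (adjusted p = 0.0444). Both values are close to the threshold: the first call was lost in 5 of 6 omissions of 1 library and the second in 6 of 6, and both were lost with library size alone (adjusted p = 0.155 and 0.138). The DC 8 h change of -0.66 ± 0.20 had an adjusted p of 0.0603, and 0.0346 with the replicate number as a block. No test separated IF from DC for Il4ra or Il21r. The summed T cell markers were also lower in all 12 stimulated libraries (5443 to 8498 CPM) than in unstimulated cells (11677 to 12727 CPM), and their part in the falls of Il4ra, Il21r and Il2rg was not tested.

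Il7r, at chr15:9505788-9530176 on the minus strand, encodes the IL-7 receptor alpha chain. It stood at 208, 156 and 146 CPM in unstimulated cells. The values were 143, 179 and 136 CPM at IF 8 h and 185, 79.9 and 165 CPM at DC 8 h. At 22 h they were 252, 179 and 134 CPM with IF and 158, 45.9 and 168 CPM with DC. Every stimulated group overlapped the unstimulated range, and no comparison passed the test. The IF against DC log2 difference at 22 h was 0.60 ± 0.38 (95% interval -0.21 to 1.41, adjusted p = 0.505). The lowest DC values were both replicate 2, which was 2.19-fold below the mean of the other 2 libraries at 8 h and 3.55-fold below at 22 h.

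DC replicate 2 took the same end of its group at both times for 9 of the 10 receptor chains, a count chosen after the values were seen. It was the highest DC library for Il2ra, Il2rb, Il4ra, Il21r and Il15ra and the lowest for Il7r, Il6ra, Il6st and Il18r1. The same count was 2 for DC replicate 1 and 5 for DC replicate 3, and 2, 3 and 6 for IF replicates 1, 2 and 3. Over all genes, DC 8 h and DC 22 h libraries of the same number deviated together from their group means, with correlations of 0.116, 0.399 and 0.238 for replicates 1, 2 and 3. Replicates 1 and 3 did so across numbers too, with 0.117 for DC 8 h replicate 3 and DC 22 h replicate 1 and 0.107 for DC 8 h replicate 1 and DC 22 h replicate 3.

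**Figure D2:**
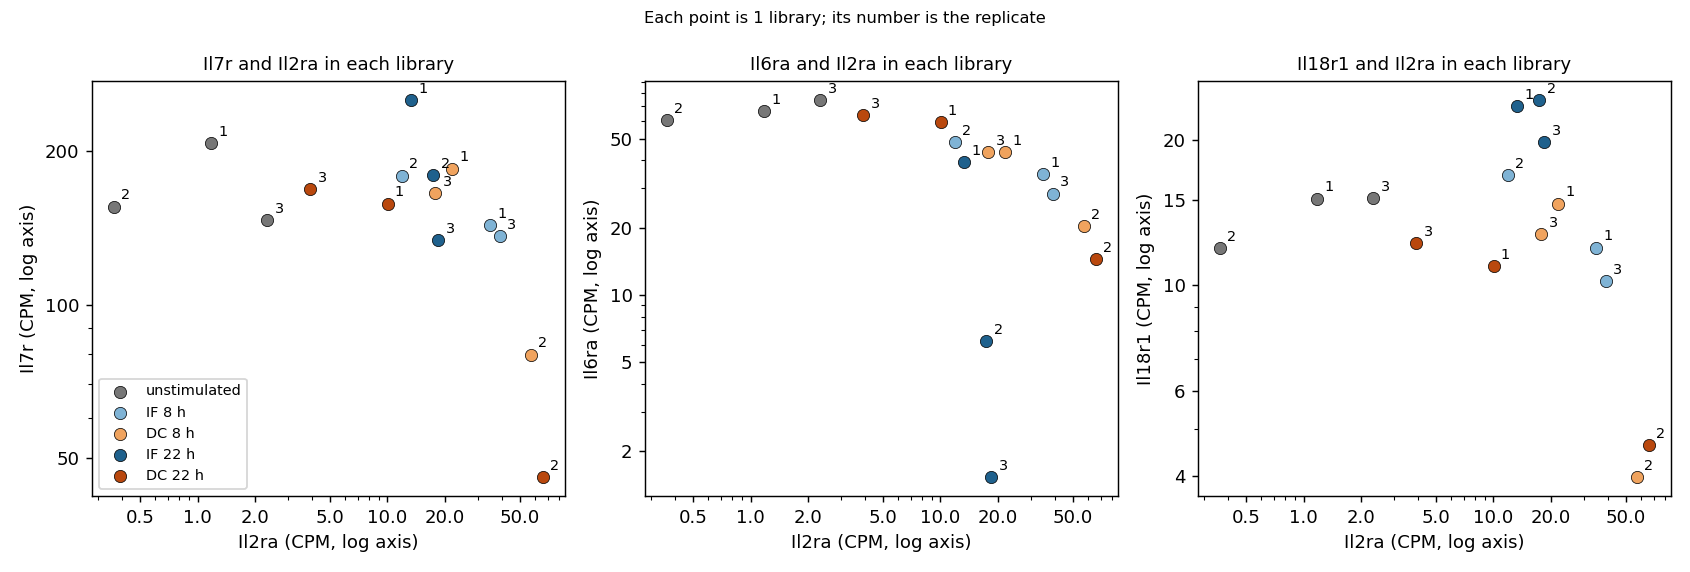
Il7r, Il6ra and Il18r1 against Il2ra, both in CPM on log axes, with 1 point per library numbered by replicate and coloured by group. DC replicate 2 lies at the lower right in each panel, and IF 22 h replicates 2 and 3 lie lowest for Il6ra.

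Il15ra, at chr2:11705290-11734317 on the plus strand, is the next protein-coding gene after Il2ra, 12096 bases on. Its counts were low. Unstimulated libraries held 8, 4 and 2 counts, or 1.17, 0.723 and 0.466 CPM. IF libraries held 1.43, 0.663 and 0.804 CPM at 8 h (8, 2 and 3 counts) and 1.31, 0.956 and 1.74 CPM at 22 h. DC libraries held 2.57, 3.10 and 1.32 CPM at 8 h and 4.10, 4.42 and 1.62 CPM at 22 h. Both DC groups lay above the unstimulated range and both IF groups overlapped it. The log2 change was 1.52 ± 0.69 at DC 8 h (adjusted p = 0.218) and 2.04 ± 0.69 at DC 22 h (adjusted p = 0.0856), neither past the test. The second passed with DESeq2 (adjusted p = 0.0409) and with library size alone (adjusted p = 0.0317). IF stood 1.22 ± 0.70 below DC at 8 h (adjusted p = 0.718) and 1.31 ± 0.64 below at 22 h (adjusted p = 0.350) on the log2 scale.

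Dendritic cells are known to express Il15ra, and markers of that cell type differed between these groups. The summed level of the 18 dendritic cell markers ran from 709 to 1575 CPM in unstimulated cells. With IF it ran from 241 to 486 CPM after 8 h and from 395 to 644 after 22 h, and with DC from 942 to 1305 and from 499 to 695. Fscn1, a marker of mature dendritic cells, lay between 126 and 168 CPM after 8 h with DC and between 72.9 and 94.8 CPM after 22 h. It lay between 0 and 6.75 CPM in unstimulated cells, and with IF between 0.268 and 0.663 CPM after 8 h and between 5.83 and 43.8 after 22 h. The lineage factor Zbtb46 had no count in any unstimulated or IF 8 h library and reached 2.28 CPM at DC 8 h. At IF 22 h it lay between 0.120 and 0.408 CPM. Itgax went the other way, with 12.8 to 16.3 CPM in unstimulated cells and at most 6.93 at DC 8 h and 7.69 at DC 22 h. Against unstimulated cells, Fscn1, Ccl22 and Cd83 passed the test as higher in both DC groups. Itgax, Xcr1, Cst3 and H2-Ab1 passed it as lower at DC 22 h. The part of these markers in the Il15ra values was not tested. In bulk samples, fewer cells of a type and less RNA per cell cannot be told apart.

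Il6ra, at chr3:89864059-89913196 on the minus strand, is overlapped by the antisense gene Gm42809. It stood at 66.2, 60.5 and 74.5 CPM in unstimulated cells. At 8 h the values were 34.6, 48.4 and 28.4 CPM with IF and 43.5, 20.4 and 43.5 CPM with DC. At 22 h they were 39.3, 6.21 and 1.53 CPM with IF and 59.1, 14.5 and 63.7 CPM with DC. All 3 unstimulated libraries lay above every library of IF 8 h, DC 8 h and IF 22 h, whereas DC 22 h replicate 3 reached into their range. After 8 h the log2 change was -0.86 ± 0.73 with IF (adjusted p = 0.523) and -0.91 ± 0.72 with DC (adjusted p = 0.519). After 22 h it was -2.13 ± 0.75 with IF (adjusted p = 0.111) and -0.55 ± 0.71 with DC (adjusted p = 0.706). None of the 4 passed the test. With only the compared groups in the fit IF 8 h passed it (-0.85, adjusted p = 0.0171), and with no low-count filter DC 8 h (-0.90, adjusted p = 0.0421) and IF 22 h (-2.12, adjusted p = 8.64e-09) passed it.

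The IF 22 h value of Il6ra depended on which libraries were kept. Without replicate 1 its log2 change against unstimulated cells was -4.23 (adjusted p = 0.000636) and its difference from DC 22 h -3.68 (adjusted p = 0.00165). With replicates 2 and 3 both left out, these were -0.77 and -0.22. The low mitochondrial ribosomal RNA of replicates 2 and 3 moved with this result, and its part was not tested.

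Among the 10 stimulated libraries other than IF 22 h replicates 2 and 3, Il6ra and Il2ra ran in opposite order in 42 of 45 pairs of libraries. In the same pairs this was so in 35 for Il7r, 33 for Il6st and 33 for Il18r1, and in 12 to 26 for the remaining chains. Over all 12 stimulated libraries this was so in 52 of 66 pairs, against 49 for Il7r, 49 for Il6st and 46 for Il18r1. These orders were looked at after the values were seen, pairs of libraries share members, and no test was made. The share of all genes with such an order was not counted.

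Il6st, at chr13:112464070-112510086 on the plus strand, encodes the partner chain gp130. It lay between 36.7 and 57.2 CPM in unstimulated cells. With IF it lay between 39.4 and 52.6 CPM after 8 h and between 42.3 and 58.8 after 22 h, and with DC between 29.6 and 36.9 and between 30.1 and 51.0. Every IF 8 h library lay above every DC 8 h library, and other groups overlapped except for DC 8 h and IF 22 h. No comparison passed the test for Il6st.

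Il18r1, at chr1:40465552-40500854 on the plus strand, was highest at IF 22 h. It stood at 15.1, 11.9 and 15.1 CPM in unstimulated cells. At 8 h it held 11.95, 16.9 and 10.2 CPM with IF and 14.8, 3.97 and 12.8 CPM with DC. At 22 h it held 23.6, 24.3 and 19.9 CPM with IF and 10.9, 4.65 and 12.2 CPM with DC. The IF 22 h libraries lay above all 12 other libraries. The log2 difference between IF and DC at 22 h was 1.28 ± 0.40 (95% interval 0.43 to 2.13), a 2.42-fold difference with an unadjusted p of 0.00565 and an adjusted p of 0.115, so it did not pass the test. With both DC replicate 2 libraries left out it was 0.95 (adjusted p = 0.0623), and with IF 22 h replicates 2 and 3 left out 1.34 (adjusted p = 0.853). Against unstimulated cells Il18r1 gave 0.68 ± 0.40 at IF 22 h (adjusted p = 0.367) and -0.60 ± 0.41 at DC 22 h (adjusted p = 0.412). Whether the difference between stimuli itself changed from 8 h to 22 h gave 0.98 ± 0.57 (adjusted p = 0.695). Summed NK cell markers ran from 253 to 308 CPM at IF 22 h, from 47.7 to 107 at DC 22 h and from 74.6 to 79.9 in unstimulated cells. After 8 h they ran from 199 to 328 CPM with IF and from 96.3 to 219 with DC. Most of the sum at IF 22 h was Eomes (240 to 296 CPM), a factor that CD8 T cells also express. Klrb1c lay between 11.8 and 13.2 CPM at IF 22 h, above its range in every other group. It lay between 4.42 and 7.78 CPM in unstimulated cells and between 0.664 and 6.49 at DC 22 h. After 8 h it lay between 3.98 and 10.7 CPM with IF and between 3.47 and 6.75 with DC. Ncr1 had no count in 12 of 15 libraries and Klra8 none in any. The part of these markers in the Il18r1 and Il2rb values at IF 22 h was not tested. The partner chain Il18rap was low, with at most 2.14 CPM in every library but IF 22 h replicate 3 (4.39 CPM) and DC 8 h replicate 3 (2.50 CPM), and was named after its values were seen.

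**Figure D3:**
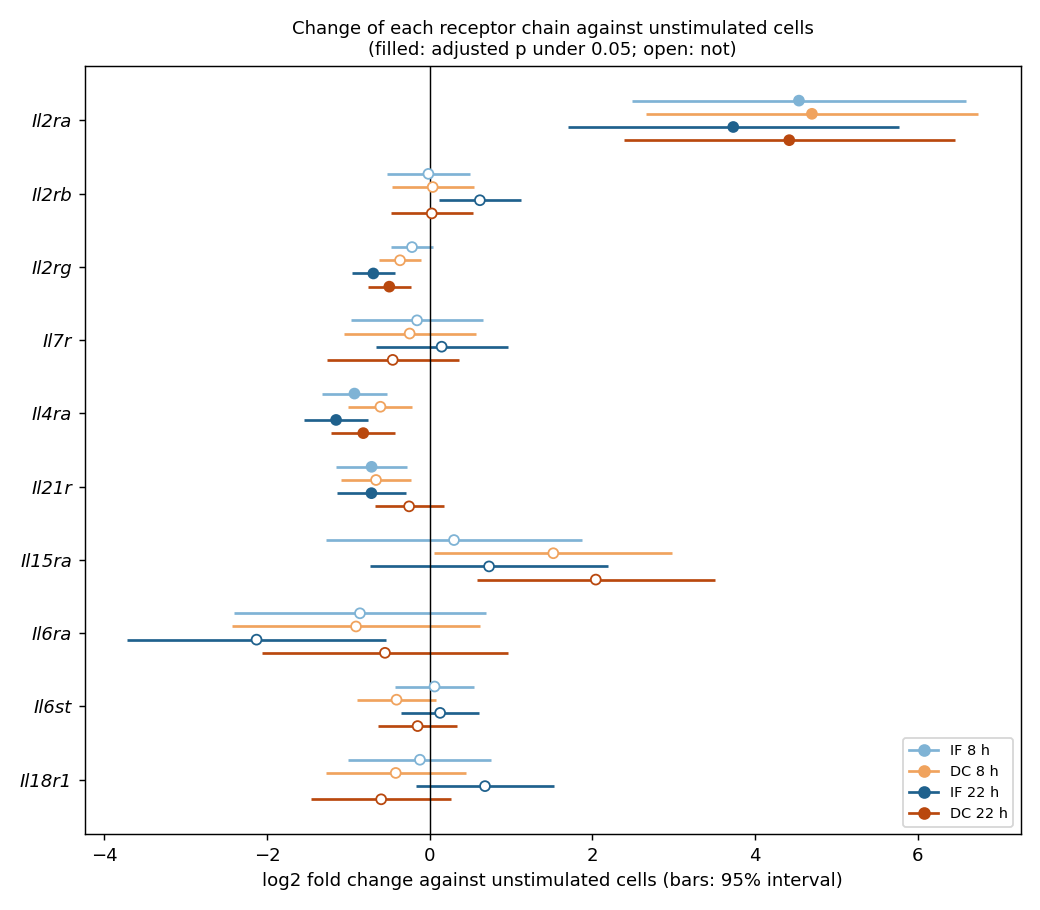
Log2 fold change of each receptor chain against unstimulated cells, with 95% intervals, for the 4 stimulated groups. Filled points passed an adjusted p of 0.05: Il2ra in 4 comparisons, Il4ra in 3, and Il2rg and Il21r in 2 each.

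Over the 10 receptor chains, 3 passed the test at IF 8 h (Il2ra higher, Il4ra and Il21r lower), where 7.76% of all genes tested did. At DC 8 h 1 passed (Il2ra), with 6.82% of all genes. At IF 22 h 4 passed (Il2ra higher, Il2rg, Il4ra and Il21r lower), with 6.08% of all genes, and at DC 22 h 3 passed (Il2ra higher, Il2rg and Il4ra lower), with 7.76% of all genes. Stimulated and unstimulated values did not overlap after 8 h for 4 of the 10 with IF (30.6% of all genes) and 6 with DC (28.2%), and after 22 h for 7 with IF (30.4%) and 4 with DC (27.1%). With IF 22 h replicates 2 and 3 left out, 1 library was left at IF 22 h, so the spread within that group could not be measured and calls are not counted. Over the 14 alternatives run, that fit included, the Il2ra change at IF 22 h lay between 3.29 and 4.34 on the log2 scale. The median log2 change of the 10 after 8 h was -0.14 with IF and -0.39 with DC, and after 22 h 0.14 and -0.35, against 0.02, 0.04, 0.01 and 0.04 over all genes. Scaling by library size alone moved these medians over all genes to 0.26, 0.30, 0.22 and 0.37. It also moved the share of higher calls over all genes. With IF, higher calls went from 329 of 840 to 849 of 1113 after 8 h and from 285 of 658 to 621 of 838 after 22 h. With DC they went from 298 of 739 to 859 of 1079 and from 369 of 840 to 1354 of 1586, and for IF against DC at 22 h from 133 of 263 to 88 of 268.

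None of the 10 passed the direct IF against DC test at 8 h (0.665% of all genes did) or at 22 h (2.43%), nor the test of 22 h against 8 h with IF (1.12%) or with DC (0.48%). The unadjusted p was under 0.05 for 0, 4, 2 and 0 of them in that order, against 8.27%, 15.3%, 15% and 9.03% of all genes. DESeq2 called 0, 0, 1 and 0 of them, and 195, 563, 366 and 210 of the 10831 genes. At 22 h the 4 were Il18r1, Il2rb, Il21r and Il6ra. Groups did not overlap between IF and DC for 2 receptor chains at 8 h, Il4ra and Il6st (13.5% of all genes), and for 2 at 22 h, Il2rg and Il18r1 (19.9%). Between IF 22 h and IF 8 h this held for Il2rb, Il2rg and Il18r1 (3 of 10, 21.5% of all genes), and between DC 22 h and DC 8 h for none (13.9%). The interaction of stimulus and time passed for 0 of the 10 and for 0% of all genes with edgeR, with an unadjusted p under 0.05 for 0 of the 10 (7.92% of all genes). DESeq2 called 0 of the 10 and 40 of the 10831 genes.

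**Figure D4:**
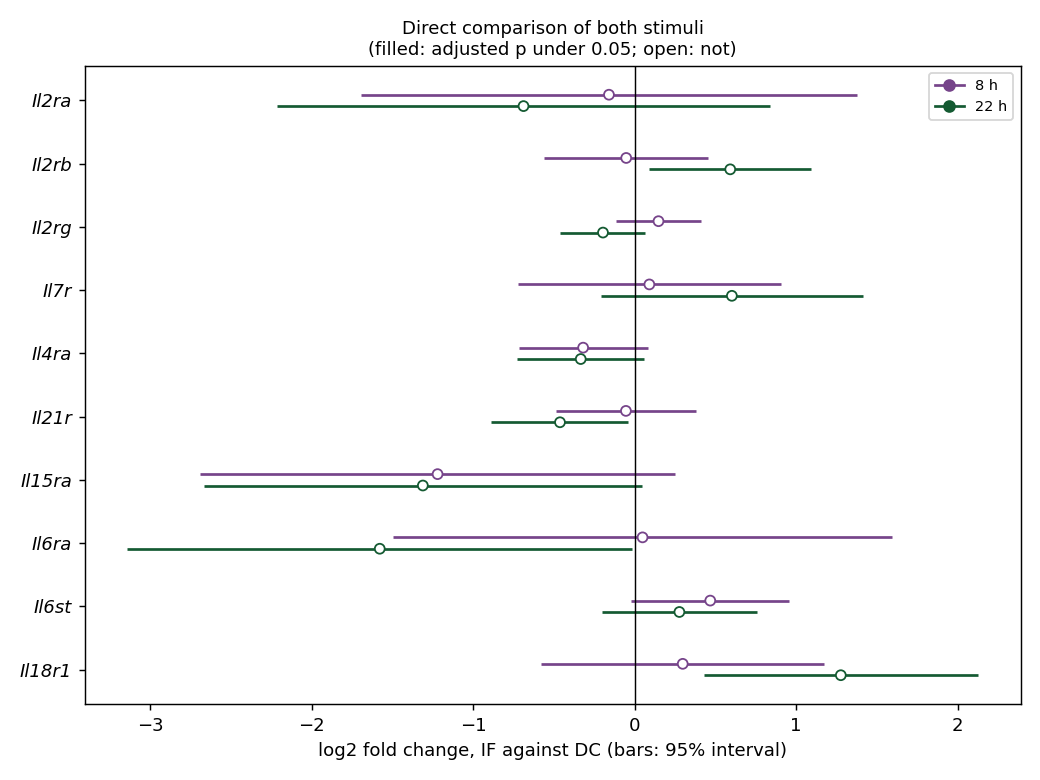
Log2 fold change of IF against DC for each receptor chain at 8 h and 22 h, with 95% intervals; all points are open because none passed an adjusted p of 0.05. At 22 h the intervals of Il2rb and Il18r1 lie above 0 and those of Il21r and Il6ra below it.

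Of 14 feedback and induced genes of gamma chain receptors, 2 rose and 2 fell with IF after 8 h, and 1 rose and 2 fell after 22 h. With DC 5 rose and 1 fell after 8 h, and 6 rose and 1 fell after 22 h. Of all genes, 3.04% rose and 4.72% fell at IF 8 h, 2.63% and 3.44% at IF 22 h, 2.75% and 4.07% at DC 8 h, and 3.41% and 4.35% at DC 22 h. In the direct comparison 3 of 14 were lower with IF than with DC at 8 h (0.434% of all genes) and 5 of 14 at 22 h (1.2% of all genes), and 0 were higher at either time. The median log2 difference of the 14 was -0.38 at 8 h and -0.52 at 22 h, against -0.01 and -0.02 over all genes. The summed dendritic cell markers given above were lower with IF than with DC in every library at 8 h (241 to 486 against 942 to 1305 CPM) and overlapped at 22 h (395 to 644 against 499 to 695 CPM). Their part in these differences was not tested. Cish, a feedback inhibitor induced by STAT5, stood at 64.2 ± 44.2 CPM (SD, n = 3) with DC and 7.89 ± 3.47 with IF at 8 h, a log2 difference of -3.004 ± 0.52 (adjusted p = 0.0108). At 22 h Cish stood at 46.2 ± 30.6 with DC and 3.40 ± 1.32 with IF, a log2 difference of -3.71 ± 0.53 (adjusted p = 0.000973). Socs3, an inhibitor of gp130 signalling, was lower with IF by 2.41 ± 0.32 and 2.69 ± 0.30 in log2 difference at 8 h and 22 h (adjusted p = 0.00101 and 0.000133). Bcl2, a survival gene known to be maintained by IL-7, fell in all 4 comparisons with unstimulated cells, by 1.55 and 1.58 in log2 fold change at 8 h with IF and DC and by 1.18 and 0.87 at 22 h.

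Of 11 JAK kinases and STAT factors, 1 fell at IF 8 h (Jak3, the kinase that binds the common gamma chain, -0.998 ± 0.29 log2, adjusted p = 0.0441) and 3 rose at DC 8 h (Jak2, Stat3 and Stat5a). At IF 22 h Stat4 rose (1.13 ± 0.23 log2, adjusted p = 0.00681), and at DC 22 h none passed the test. The median log2 change of the 11 after 8 h was 0.19 with IF and 0.65 with DC, and after 22 h 0.01 and 0.35. Stat2 and Stat3 were lower with IF than with DC at 22 h, with log2 differences of -1.40 ± 0.32 (adjusted p = 0.0282) and -0.75 ± 0.18 (adjusted p = 0.0369). The single-gene results of 1 listed gene are not reported here. The genes named at IF 22 h and for IF against DC at 22 h are therefore not a full tally of the 11. Of the 38 other cytokine receptor chains listed, 24 had counts enough to be tested. Ifnar1 rose at IF 8 h (0.74 ± 0.20 log2, adjusted p = 0.036) and Csf2rb2, a beta chain of the IL-3 receptor in mice, rose at DC 8 h and DC 22 h from 0.127 ± 0.118 CPM to 5.45 ± 2.42 and 3.69 ± 0.166 CPM. Il27ra fell at IF 22 h (-1.71 ± 0.38 log2, adjusted p = 0.0124). The median of the 24 lay between -0.08 and 0.21 in these 4 comparisons. The summed dendritic cell markers given above were not above the unstimulated range in either DC group. Fscn1 lay above its unstimulated range in both DC groups, and Itgax and Xcr1 lay below theirs. The part of these markers in the Csf2rb2 values was not tested. Of 6 genes of the MyD88 route, Irak2 rose at IF 8 h, DC 8 h and IF 22 h, and Traf6 fell at IF 8 h, with list medians between -0.34 and 0.05. Of 8 ligand genes only Il15 could be tested, and it passed in no comparison. Il2 itself had at most 7 counts in any library.

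By the correlation of log2 CPM over all 15 libraries, the genes most like Il2ra were Rps27l (Pearson r = 0.933), Wdr77 (0.932) and Fam98a (0.930). Those most like Il4ra were Junb (0.925), Plac8 (0.897) and Jun (0.897). Those most like Il2rg were Rnu12 (0.928), Ing2 (0.908) and Parp10 (0.897), and those most like Il21r were Atp6v0a2 (0.863), 3010026O09Rik (0.847) and Scd2 (0.838). Among the receptor chains the highest correlations were Il7r with Il18r1 (0.845), Il7r with Il6st (0.754) and Il6st with Il18r1 (0.740), followed by Il2rg with Il4ra (0.738) and Il4ra with Il21r (0.728). The 15 points share 5 groups and their scaling, so these values describe the libraries.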

How the data were processed

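RNA of sorted cells was sequenced by an adapted CEL-seq protocol, which counts the 3' ends of transcripts, per the labels' protocols. The deposited tables hold whole-number counts per gene without normalization, 1 table per library. BWA and mm10 are named in the submitters' processing notes, and the counting program, strand and use of molecular identifiers are not given in the sources used here, so the binomial intervals of shares cover counting error only. The counts entered edgeR 4.0.16 (R 4.3.3), where filterByExpr (minimum count 10, minimum total 15) kept 10831 of 17493 genes and TMM scaled the libraries. All 15 libraries shared 1 quasi-likelihood fit with a mean for each of the 5 groups. Intervals of log2 changes come from this fit and include the spread between libraries. Two-sided p-values were adjusted by Benjamini-Hochberg over all genes of a comparison, with a threshold at 0.05. Fold changes use a prior count of 0.125, and correlations use log2 CPM with a prior count of 2. The fit was tested on simulated data.

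The 10 receptor chains, the pathway and marker lists and the motifs were chosen with earlier results of these data known. All 10 were named in every comparison, at most 3 genes per list by smallest p (the single-gene results of 1 listed gene are not reported here), and the 3 genes most correlated with each receptor chain that passed a test. Gene positions are from GENCODE vM21 (GRCm38). RefSeq promoters were matched by symbol for 9 of 10, Il2rb being the exception.

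The titles repeat the numbers Don1 to Don3 in all groups without saying what they stand for, so the block was used as an alternative. Over 30 same-numbered pairs, correlations of deviations from group means ran from -0.189 to 0.399 and 4 exceeded 0.1, as did 5 of 60 pairs with different numbers. All 3 same-numbered pairs of DC 8 h with DC 22 h exceeded it (0.116, 0.399 and 0.238), which met the limit set for treating those groups as paired. Replicates 1 and 3 were not told apart by this, since DC 8 h replicate 3 with DC 22 h replicate 1 gave 0.117 and DC 8 h replicate 1 with DC 22 h replicate 3 gave 0.107. No receptor chain passed the test of DC 22 h against DC 8 h with or without the block. That block is an effect of the replicate number shared by all 5 groups, so a test paired within the DC groups alone was not made. Alternatives were DESeq2 1.42.0, its size factors, library size alone, no filter, a prior count of 2, only the compared groups, the replicate number as a block, leaving out each library, and leaving out IF 22 h replicates 2 and 3. Leaving out both DC replicate 2 libraries was chosen after seeing the data.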

Additional observations from a re-analysis of the deposited data

How the results depend on the processing

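Fold changes were followed through the alternatives where they passed the test or reached 0.5 on the log2 scale, 40 of 90. The limit of 0.5 was set after the alternatives had been seen. Of the 50 smaller ones, 28 changed sign under some alternative and 2 passed the test under one, both of Il2rg. The Il2rg change was -0.51 (adjusted p = 0.0476) with library size alone and -0.49 (adjusted p = 0.0131) with DESeq2 for IF 22 h against IF 8 h, and -0.37 (adjusted p = 0.0487) with DESeq2 for DC 8 h. Of the 40, the Il2ra difference between IF and DC at 22 h turned from -0.69 to 1.25 without DC 22 h replicate 2 and to 1.24 without both DC replicate 2 libraries, and the Il2ra interaction turned from -0.53 to 1.40 and 0.71. Over omissions of 1 library these 2 ran from -1.21 to 1.25 and from -1.22 to 1.40. The Il6ra change from IF 8 h to IF 22 h turned from -1.27 to 0.092 without IF 22 h replicates 2 and 3. No other of the 40 changed sign. The number of receptor chains called at DC 8 h rose from 1 to 2 with no filter, with only the compared groups, with the replicate block (Il21r, -0.68) and without both DC replicate 2 libraries, and to 4 with DESeq2. Calls over all genes at DC 8 h went from 739 of 10831 to 1129 of 17123 with no filter and 827 of 9920 with only the compared groups. They were 714 of 10831 with the block, 706 of 11122 without both DC replicate 2 libraries and 1175 of 10831 with DESeq2. IF against DC at 22 h gave 2 calls with no filter (Il6ra, adjusted p = 4.74e-05, and Il18r1, adjusted p = 0.00971) and 1 (Il2rb, 0.84, adjusted p = 0.0279) without both DC replicate 2 libraries. Over all genes that comparison went from 263 of 10831 calls to 706 of 17123 with no filter and 346 of 11122 without both DC replicate 2 libraries. IF 22 h against IF 8 h gave 1 call with library size alone, with no filter and with DESeq2, and the interaction gave 1 with no filter. Over all genes the first went from 121 calls to 112 with library size alone, 502 of 17123 with no filter and 366 with DESeq2. The interaction went from 0 to 155 of 17123 genes with no filter. For IF 22 h against unstimulated cells, leaving out IF 22 h replicates 2 and 3 leaves 1 library assumed to vary like the other groups, so its calls are not counted. Leaving out 1 library gave 1 to 3 calls at IF 8 h, 2 to 4 at IF 22 h and 0 to 3 at DC 22 h (1 without unstimulated replicate 2 or DC 22 h replicate 1). It gave 0 to 1 for IF against DC at 22 h, for IF 22 h against IF 8 h and for the interaction, the 1 being Il6ra without IF 22 h replicate 1. Over all genes these fits called 419 to 573 at IF 8 h (840 with all libraries), 283 to 947 at IF 22 h (658) and 454 to 984 at DC 22 h (840). They called 90 to 759 for IF against DC at 22 h (263), 24 to 541 for IF 22 h against IF 8 h (121) and 0 to 279 for the interaction (0). No receptor chain calls at DC 22 h were left without unstimulated replicate 1, and 1 at IF 8 h was left without unstimulated replicate 2. At IF 22 h 2 were left without any 1 unstimulated library or without IF 22 h replicate 2 or 3. In these same fits calls over all genes also fell, to 481 at DC 22 h, 438 at IF 8 h and 283 to 384 at IF 22 h. Beside Il2ra at DC 8 h, the Il4ra call at IF 8 h held in all 13 alternatives run, and the Il4ra and Il2rg calls at IF 22 h in 13 of 14. The replicate block changed no call other than Il21r at DC 8 h. Of the 15 libraries, 8 correlated best with a library of their own number, and the count to be met without any pairing was not worked out. The median correlation was 0.0034 for same-numbered pairs and -0.0059 for pairs with different numbers. DESeq2 gave no adjusted p for Il6ra. The cause of these changes was not tested. Depth limits Il2ra most in unstimulated cells, with 2 to 10 counts a library. It limits Il15ra most in unstimulated and IF 8 h libraries, with 2 to 8 counts in each.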
